A study of Mus musculus with 6 samples.

Results

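The cluster of miR-182, miR-183 and miR-96 was read in serum exosomes as the rows of its guide arms, mmu-miR-182-5p, mmu-miR-183-5p and mmu-miR-96-5p, matched by name, which are 3 of the 1982 miRNAs listed. The serum came from 6 male C57BL/6 mice aged 3 months. The 3 Acu/LFES mice had acupuncture with low frequency electrical stimulation of the hindlimb for 30 min, once. The 3 sham mice went through needling of nearby positions with the current left off. Exosomes, vesicles that cells shed into the circulation, were pelleted from the serum of each mouse, and reads were counted on each mature miRNA. The 6 libraries shared a sequencing lane.

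A miRNA is a short RNA that pairs with mRNAs mainly through its seed, bases 2 to 8 from its 5′ end, and lowers the output of protein from them. The cluster is transcribed as a common precursor and is best known from sensory organs, where photoreceptors of the retina, hair cells of the inner ear and sensory neurons hold much of it. Loss or a seed change of miR-96 in mice impairs hearing. miR-182 is also induced in activated T cells, and members of the cluster are made by several epithelia and tumours, so blood can receive them from more than a single source.

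The mature sequences are shown because seed and remaining bases decide which reads could be counted on which member. They are from RefSeq on GRCm38.p6, where all 3 members were matched, and are written 5′ to 3′ with the seed in capitals.
mmu-miR-182-5p: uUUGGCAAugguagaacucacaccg
mmu-miR-183-5p: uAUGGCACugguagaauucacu
mmu-miR-96-5p: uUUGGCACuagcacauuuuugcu

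The members had 3 different seeds. Positions were counted from 1 at the 5′ end, without gaps. miR-182-5p and miR-183-5p differed at 4 of 22 positions, by U2A, A8C, C17U and A22U, of which 2 lie in the seed. miR-182-5p and miR-96-5p differed at 11 of 23 positions but by A8C alone in the seed. miR-183-5p and miR-96-5p differed at 9 of 22 positions, with A2U in the seed. With gaps allowed and full lengths compared, the nearest to miR-182-5p among the 1622 other listed miRNAs with a RefSeq sequence was miR-183-5p, at 7 base changes. Of the 1679 mature mouse miRNAs in RefSeq, mmu-miR-1271-5p has the seed of miR-96-5p and was not analysed here.

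The hairpins lie on chromosome 6 of GRCm38.p6, all on the minus strand. Mir183 is at 30169668 to 30169737, Mir96 at 30169446 to 30169551 and Mir182 at 30165918 to 30165992. Mir183 and Mir96 are separated by 116 bases, Mir96 and Mir182 by 3453 bases, and the whole cluster spans 3820 bases. GENCODE M21 gives the same positions, and no other annotated gene overlaps a hairpin. The noncoding Rncr4 lies upstream on the plus strand, 3155 bases from Mir183.

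The total count was between 391708 and 658833 in the sham libraries and between 517421 and 1504137 in the Acu/LFES libraries. TMM factors, with which edgeR scales libraries by the miRNAs that change least, were between 0.651 and 1.11 except in Acu/LFES mouse 6, where the factor was 2.12. That library stood apart. The red-cell miRNAs miR-486a-5p and miR-486b-5p, listed with identical counts, took 29.2% of its counts against 61.7% to 74.0% in the other 5. Levels are given as CPM, counts per 1000000 of the library size after that size was multiplied by its factor. A floor of 3 counts in a library stood between 1.80 and 9.91 CPM. Intervals and floors cover counting error only, since reads without molecular identifiers are not independent molecules.

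The cluster was sparse in these libraries. Summed over them, the read counts of its members stood in the order miR-182-5p, miR-183-5p and miR-96-5p. Reads of different sequences were not calibrated to amounts of RNA, so this order and the ratios below are of reads. miR-182-5p had 123 counts over the 6 libraries, miR-183-5p had 21 and miR-96-5p had 0, out of 4328360. The ratio of miR-182-5p to miR-183-5p in these sums was 5.86, with an exact 95% binomial interval from 3.67 to 9.80 that covers counting error in the summed reads and not the spread between mice. Acu/LFES mouse 4 held 13 of the 21 counts of miR-183-5p, and without it the ratio was 12 (96 against 8 counts). For miR-96-5p, 0 of 4328360 counts allows up to 0.693 CPM on the summed totals, a limit of 3 counts. Over the 6 libraries the counts of miR-182-5p were 41-fold and those of miR-183-5p 7-fold that limit. These folds leave out the counting error of the 2 members. By mean CPM, miR-182-5p was number 210 and miR-183-5p number 412 of the 954 miRNAs with a count. Only 1 of the 3 members, miR-182-5p, passed the default filter of edgeR on low counts, which kept 259 miRNAs for the test. In these serum vesicles fewer cells that make a miRNA and less of it from each cell cannot be told apart.

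**Figure D1:**
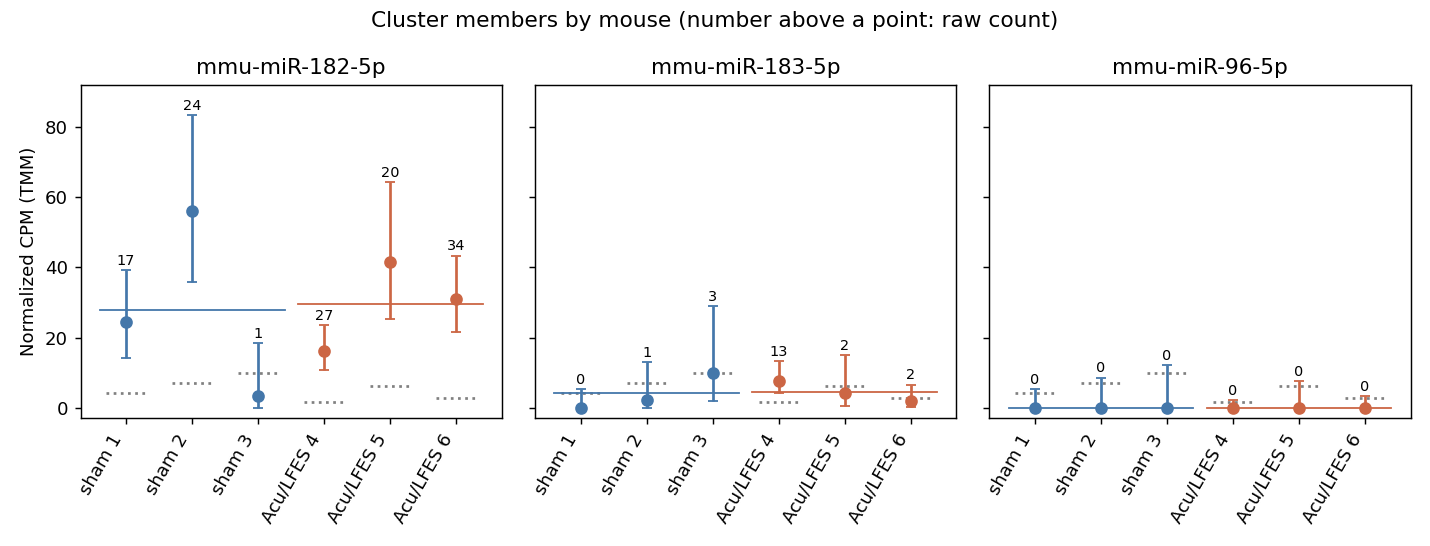
Normalized CPM of each member (vertical axis) in each mouse (horizontal axis), with points for mice, bars for exact 95% Poisson intervals, raw counts above them, horizontal lines for group means and dotted lines for the floor of 3 counts in that library. miR-182-5p was above the floor in 5 of 6 mice, miR-183-5p reached 3 counts in 2 mice, and miR-96-5p had 0 counts in all 6.

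miR-182-5p, the most counted member, which is known to repress Foxo transcription factors, was not separated between the groups. In sham mice 1, 2 and 3 it had 17, 24 and 1 counts, or 24.5, 56.0 and 3.30 CPM. In Acu/LFES mice 4, 5 and 6 it had 27, 20 and 34 counts, or 16.2, 41.6 and 31.0 CPM. The highest and the lowest mouse were both sham, so the sham range enclosed every Acu/LFES mouse. The sham mean was 27.9 ± 26.5 CPM and the Acu/LFES mean 29.6 ± 12.8 CPM (SD, n = 3 each). The log2 fold change of Acu/LFES over sham was 0.05 (standard error 0.98, 95% interval -2.15 to 2.25, adjusted p = 0.992 by the quasi-likelihood test of edgeR, with Benjamini-Hochberg adjustment over the 259 miRNAs). Over the 259 miRNAs the median log2 fold change was 0.05, which is the value of miR-182-5p itself, the middle row. The interval spans changes in either direction, so a change within it, of either sign, could not be told from none at this depth and spread.

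Against this, the quasi-likelihood test of edgeR put 0 of the 259 miRNAs (0%) under an adjusted p of 0.05, 23 (8.88%) passed an unadjusted p of 0.05, and DESeq2 called 7 after adjustment. miR-182-5p was in none of these sets. The groups did not overlap in 44 of the 259 miRNAs (17%), and miR-182-5p was not among those either.

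With TMM scaling, some mice of a group had Poisson intervals for miR-182-5p that did not overlap. This depends on the scaling. The intervals of sham mice 2 and 3 overlap when scaled to miR-103-3p, and those of Acu/LFES mice 4 and 5 overlap when scaled by total counts. The values below are from TMM scaling. Sham mouse 2, with an exact 95% Poisson interval from 35.9 to 83.3 CPM, stood above sham mouse 3, with an interval from 0.0837 to 18.4 CPM. Sham mouse 1, from 14.3 to 39.2 CPM, overlapped both. The sham range was 16.9-fold from lowest to highest and the Acu/LFES range 2.57-fold. Within Acu/LFES, mouse 5 (25.4 to 64.2 CPM) lay above mouse 4 (10.6 to 23.5 CPM), whose library was the deepest. At the mean CPM of the other sham mice, sham mouse 3 would have had 12.2 counts of miR-182-5p in place of 1. That library had the smallest total, 391708, and the fewest miRNAs with a count, 338.

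The sign of the comparison rested on single mice. Without sham mouse 3 the log2 fold change of miR-182-5p was -0.40 (adjusted p = 0.930), and without sham mouse 2, the highest, it was 0.98 (adjusted p = 0.790). It was -0.20 without Acu/LFES mouse 5, 0.40 without Acu/LFES mouse 4, 0.07 without Acu/LFES mouse 6 and 0.02 without sham mouse 1. Scaled by total counts alone it was 0.76, while the median of all miRNAs tested moved from 0.05 to 0.71. All of these values came from the edgeR fit, and the standard error was between 0.87 and 1.25 throughout.

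**Figure D2:**
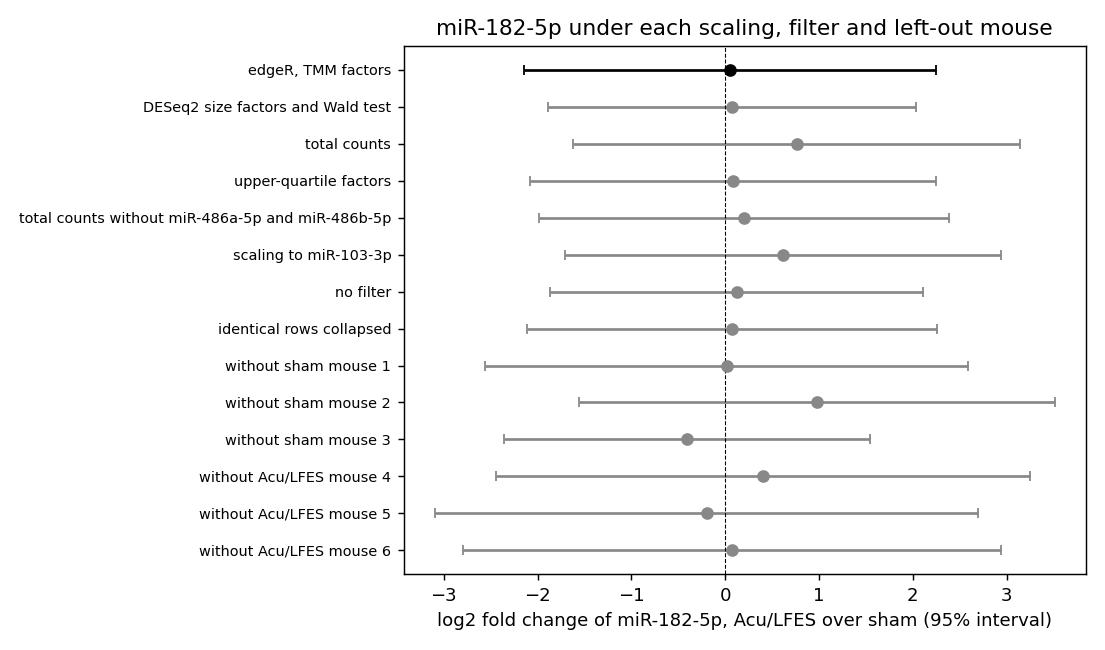
Log2 fold change of miR-182-5p, Acu/LFES over sham (horizontal axis), with its 95% interval, for the reported fit (black) and each alternative scaling, filter or left-out mouse (grey). Every interval crosses 0, and the estimates run from -0.40 without sham mouse 3 to 0.98 without sham mouse 2.

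miR-183-5p, the member encoded furthest upstream, was near the limit of detection. It had 0, 1 and 3 counts in sham mice 1, 2 and 3, or 0, 2.33 and 9.91 CPM. In the treated mice 4, 5 and 6 it had 13, 2 and 2 counts, or 7.78, 4.16 and 1.83 CPM. The sham range again enclosed all 3 Acu/LFES mice, and 13 of the 21 counts came from the deepest library. The sham mean was 4.08 ± 5.18 CPM and the Acu/LFES mean 4.59 ± 3.00 CPM (SD, n = 3 each). Without the filter on low counts, its log2 fold change was 0.29 with a standard error of 2.65 (adjusted p = 0.968 by the quasi-likelihood test of edgeR over 954 miRNAs, of which 39, or 4.09%, were higher at an unadjusted p under 0.05). The difference of the means, 0.506 CPM, turned to -1.10 CPM without Acu/LFES mouse 4 and to -0.77 CPM when libraries were scaled to miR-103-3p.

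miR-96-5p, the member tied to hearing, had 0 counts in each of the 6 libraries. The limit that 0 counts allows, 3 counts, was 4.32, 6.998 and 9.91 CPM in sham mice 1, 2 and 3 and 1.80, 6.24 and 2.74 CPM in Acu/LFES mice 4, 5 and 6. At this depth it was not detectable in either group, and no fold change can be given. The opposite arms of the hairpins were near or at 0 as well. miR-182-3p had 1 count, in Acu/LFES mouse 6, and miR-183-3p and miR-96-3p had 0 counts in every library.

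The balance between cluster mates needs no library scaling. miR-182-5p made up 17 of 17 cluster counts in sham mouse 1, 24 of 25 in sham mouse 2 and 1 of 4 in sham mouse 3. It made up 27 of 40 in Acu/LFES mouse 4, 20 of 22 in mouse 5 and 34 of 36 in mouse 6. miR-182-5p was the larger member in 5 of 6 mice, and in sham mouse 3 miR-183-5p had more counts. As a share, the lowest Acu/LFES value was 67.5% in mouse 4 (95% Wilson interval 52.0% to 79.9%) and the highest 94.4% in mouse 6 (81.9% to 98.5%). Sham mouse 3 was at 25.0% (4.56% to 69.9%) and sham mouse 2 at 96% (80.5% to 99.3%). Each share rests on at most 40 counts, and that of sham mouse 3 on 4.

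**Figure D3:**
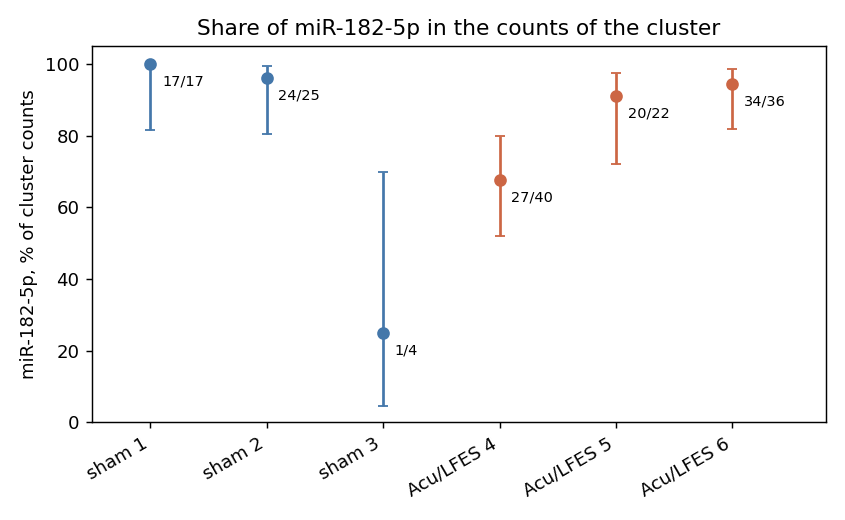
Share of miR-182-5p in the summed counts of the 3 members, in percent (vertical axis), for each mouse (horizontal axis), with 95% Wilson intervals and the counts beside each point. In 4 mice the share was 90.9% or more, and it was 67.5% in Acu/LFES mouse 4 and 25.0% in sham mouse 3, which had 4 cluster counts.

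The log2 ratio of miR-182-5p to miR-183-5p, with a pseudocount of 0.5, was 5.13, 4.03 and -1.22 in sham mice 1, 2 and 3. It was 1.03, 3.04 and 3.79 in Acu/LFES mice 4, 5 and 6, again within the sham range. The sham mean was 2.65 ± 3.39 and the Acu/LFES mean 2.62 ± 1.43 (SD, n = 3 each), and the groups did not separate (two-sided exact permutation test, p = 1.0, where 3 against 3 cannot go below 0.1). Without sham mouse 3, the difference of the mean log2 ratios was -1.96, and without sham mouse 1 it was 1.21. This was the only ratio formed, since with 0 counts of miR-96-5p a ratio to it would hold the pseudocount alone.

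Likeness to a member was measured by the SD over the 6 mice of the log2 ratio to it, among 254 tested miRNAs outside the cluster with identical rows taken once. By this measure the cluster mate miR-183-5p, with few reads, had an SD of 2.33 to miR-182-5p, and 218 of the 254 had a smaller SD. The nearest to miR-182-5p were miR-181a-1-3p, with an SD of 0.53, miR-326-3p, with 0.58, and miR-466i-5p, with 0.59, against a median of 1.41 over the 254. miR-466i-5p, the most counted of these, had 140, 246 and 18 counts in sham mice 1, 2 and 3 and 612, 144 and 312 in Acu/LFES mice 4, 5 and 6. Each of the 3 had its lowest count and its lowest CPM in sham mouse 3, as miR-182-5p did, with 0 counts of miR-181a-1-3p and 3 of miR-326-3p. The 3 were picked for likeness over these same mice, so the shared low value follows largely from the choice.

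For miR-183-5p the nearest were miR-16-2-3p, with an SD of 0.41, miR-142a-3p, a white-cell miRNA, with 0.55, and miR-335-3p, with 0.76, against a median of 1.59. miR-142a-3p had 5, 14 and 45 counts in sham mice 1, 2 and 3 and 73, 23 and 42 in Acu/LFES mice 4, 5 and 6. As CPM, both it and miR-183-5p were highest in sham mouse 3, at 149 and 9.91 CPM, and lowest in sham mouse 1, at 7.21 and 0 CPM. With at most 13 counts of miR-183-5p in a library, this likeness is a description of few reads. Its nearest miRNAs were also picked over these same mice, so the shared high and low follow largely from the choice. The pattern of miR-142a-3p was not that of the white-cell and platelet list as a whole. That list summed to 6891, 7829 and 6411 CPM in sham mice 1, 2 and 3, lowest in mouse 3.

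**Figure D4:**
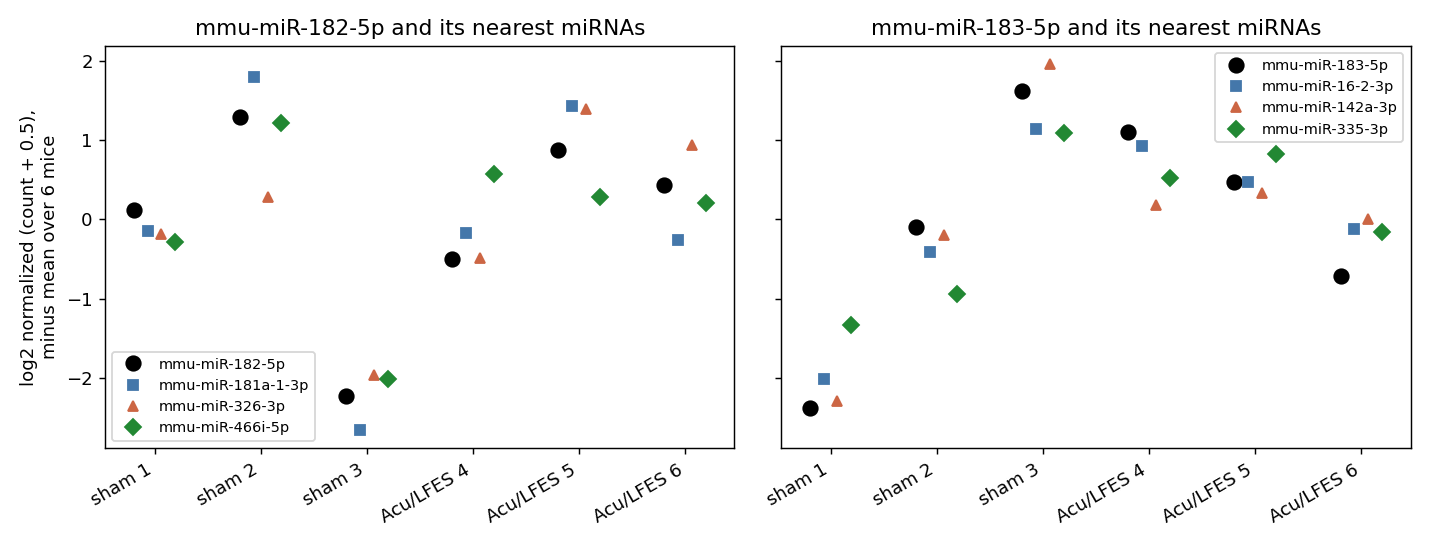
Log2 of the count plus 0.5 over the TMM-scaled library size, minus its mean over the 6 mice (vertical axis), in each mouse (horizontal axis), for miR-182-5p (left, black) and miR-183-5p (right, black) with the 3 tested miRNAs nearest to each. The miR-182-5p panel is low in sham mouse 3 for all 4 miRNAs, and the miR-183-5p panel is highest in sham mouse 3 and lowest in sham mouse 1 for all 4. The nearest miRNAs were picked by likeness over these 6 mice, so the shared patterns follow largely from the choice.

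Marker miRNAs of tissues that could supply the cluster were read in the same mice. The list of retina and pigment epithelium, miR-204-5p and miR-211-5p, was at 0 CPM in sham mouse 2, which had the highest miR-182-5p. Its summed level ran from 0 to 86.5 CPM with sham treatment and from 54.5 to 97.7 CPM with Acu/LFES. In the neuron list, all 5 members had a count, and the sum ran from 1814 to 2475 CPM with sham treatment and from 1931 to 2424 CPM with Acu/LFES. Nearly all of it was miR-128-3p. The defining neuronal miR-124-3p and miR-9-5p, singled out after their values were seen, had 6 and 17 counts in Acu/LFES mouse 4 and 0 elsewhere.

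The epithelial list, with 7 of 7 members counted and miR-205-5p the most counted, was at 1418 CPM in sham mouse 3, 1563 CPM in sham mouse 2 and 3872 CPM in sham mouse 1, and ran from 1994 to 4102 CPM in Acu/LFES mice. The white-cell and platelet list, with 5 of 5 counted, ran from 6411 to 7829 CPM with sham treatment and from 5063 to 7053 CPM with Acu/LFES. Sham mice 2 and 3, the highest and the lowest in miR-182-5p, were close in the sum of the epithelial list, but not in each of its members. miR-200a-3p had 53 counts in sham mouse 2 and 10 in sham mouse 3, whose library was smaller. miR-200b-3p had 11 and 1, while miR-141-3p had 0 and 1. The white-cell and platelet sums of these mice, 7829 and 6411 CPM, were not far apart either. The liver miRNA miR-122-5p was at 20828 CPM in sham mouse 3 against 7325 to 8546 CPM in the other sham mice and 1693 to 15312 CPM in Acu/LFES mice. As a percent of total counts it was 1.61% in sham mouse 3 and highest, at 3.24%, in Acu/LFES mouse 6. The muscle list, with 4 of 5 counted and the cardiac miR-208a-3p at 0, ran from 10094 to 11262 CPM with sham treatment and from 7483 to 12434 CPM with Acu/LFES. The red-cell list, with 5 of 5 counted, took 61.8% to 74.1% of the counts in sham mice and 29.4% to 73.6% in Acu/LFES mice. In the edgeR fit, 0 of the 21 tested members of these 7 lists reached an unadjusted p of 0.05, against 8.88% of all miRNAs tested. The part of these tissues in the level of the cluster was not tested.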

How the data were processed

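The counts were deposited by the authors as whole reads on each mature miRNA, a column per mouse, without normalization. The submitters' processing notes name cutadapt 1.6 and DESeq2 1.26.0. The aligner, the mismatches allowed and the miRNA annotation are not given in the sources used here. The mouse numbers were not shared between groups. p-values measure the spread between mice, 3 in each group.

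edgeR 4.0.16 in R 4.3.3 was run on the whole table with its default filter, TMM factors and the quasi-likelihood test, with Benjamini-Hochberg adjustment at 0.05. Standard errors came from the F statistic. DESeq2 1.42.0, run on the same filtered rows, was an alternative. The fit was tested on simulated data. Ratios were compared by exact permutation tests in scipy 1.17.1. Identical rows were collapsed, in an alternative, where they summed to at least 50 counts.

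The members, the 7 marker lists and the tests were chosen with earlier results of these data known. The miRNAs named were the members, their opposite arms, miRNAs that share a seed, and the 3 tested miRNAs with the smallest SD of the log2 ratio to each member with a count. Markers were named as lists with the most counted member, apart from single markers named for their counts. Positions and sequences are from RefSeq and GENCODE M21 on GRCm38, not from the count table.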

Additional observations from a re-analysis of the deposited data

How the results depend on the processing

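The log2 fold change of miR-182-5p stayed short of an adjusted p of 0.05 under every alternative run. It was between 0.07 and 0.76 with DESeq2, the other scalings, no filter and identical rows collapsed, and from -0.40 to 0.98 with each mouse left out. With at least 10 counts required in every library it was not tested, since sham mouse 3 had 1 count. The difference of the mean log2 ratios of miR-182-5p to miR-183-5p was -0.03 and reversed to 0.18 with a pseudocount of 1. With each mouse left out it went from -1.96 to 1.21. A pseudocount of 0 gives no ratio in sham mouse 1, which had 0 counts of miR-183-5p. The difference in mean miR-183-5p went from -1.496 to 3.73 CPM with each mouse left out. The ratio of their summed counts went from 4.68 to 12 with each mouse left out, an alternative chosen after seeing the data. The cause of these changes other than the loss of a sample was not tested.

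Over all miRNAs tested, DESeq2 called 2 higher and 5 lower at an adjusted p under 0.05, against 0 and 0 in edgeR's quasi-likelihood test, where 15 were higher and 8 lower at an unadjusted p under 0.05. These unadjusted counts were 23 and 0 with total counts, 7 and 0 with scaling to miR-103-3p, 39 and 14 without the filter, which tests 954 miRNAs, and 9 and 9 with at least 10 counts in every library, which tests 152. With each mouse left out, 271 to 311 miRNAs were tested. At an unadjusted p under 0.05, 13 to 41 were higher and 6 to 9 lower. The higher counts were 41 of 303 without sham mouse 1 and 24 of 306 without Acu/LFES mouse 5. In these fits 0 passed an adjusted p of 0.05 in either direction. No paired analysis was possible because the mouse numbers are not shared between groups. Depth limits miR-96-5p and miR-183-5p most, with 0 and 21 counts in all.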
